A study of Rattus norvegicus with 74 samples.

Results

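A set of 10 genes of antioxidant defence and glutathione turnover were followed across whole skeletal muscle, mitochondria captured from that muscle and the left ventricle of the heart in sedentary and exercise-trained rats. The 10 members, of 30560 genes in the deposited tables, are Oplah, Sod1, Sod2, Cat, Gpx1, Gpx4, Prdx3, Prdx5, Gclc and Nfe2l2, taken by gene symbol, each with 1 gene identifier. They were chosen by measured values of these data, since Oplah was picked because it was higher in trained muscle. The muscle training values are therefore given as a description with no p-value for any member, and nothing is read from which members are called there. All rats were male wild-type Wistar Kyoto rats, 9 weeks old at sampling, that drank tap water with 8% deuterium oxide and were anaesthetised with isoflurane. The trained arm (ExT) ran on a treadmill from 5 weeks of age for 4 weeks on 5 days a week. It began at 15 m/min with 20 min sessions and reached 60 min at 20 m/min. Rats were sampled 24 h after they last ran. The sedentary arm (Sed) stood on a stationary treadmill for the same time. Whole muscle (SM) and mitochondria (MT) came from the same 30 rats, with 15 libraries per arm for each. The left ventricle (LV) came from 14 of those rats, with 7 libraries per arm. Mitochondria were pulled down by an antibody, and treatment with RNase-A and proteinase-K followed. SM and MT libraries were made with a Zymo-Seq RiboFree kit from 50 ng and 10 ng of RNA, and LV libraries with an Illumina TruSeq Stranded Ribo-Zero kit from 100 ng. Kit, input and tissue cannot be told apart in LV against SM, nor input and preparation in MT against SM.

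Superoxide leaks from the respiratory chain and is turned into hydrogen peroxide by superoxide dismutases, Sod1 in the cytosol and Sod2 in the mitochondrial matrix. Peroxide is then removed by catalase (Cat), by glutathione peroxidases such as Gpx1 and the membrane-lipid enzyme Gpx4, and by peroxiredoxins, of which Prdx3 is mitochondrial and Prdx5 is found in mitochondria, peroxisomes and cytosol. Glutathione is made in a pathway whose first and rate-limiting step is catalysed by glutamate-cysteine ligase, with Gclc as its catalytic subunit. Oplah, 5-oxoprolinase, returns 5-oxoproline from glutathione breakdown to glutamate in the gamma-glutamyl cycle. Nfe2l2 (NRF2) is the transcription factor that binds antioxidant response elements of many of these genes.

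Promoter sequence was given by RefSeq (build GRCr8) for 9 of the 10 members, all but Oplah. The 100 bases before the start are shown for Sod2 and Gpx4, the members whose promoters held a motif that was searched, and for Gpx1 and Prdx3, the members with the highest LV levels relative to muscle. They lie at chr1:50050169-50050268 on the minus strand for Sod2, chr7:10303630-10303729 on the minus strand for Gpx4, chr8:117905362-117905461 on the plus strand for Gpx1 and chr1:270000112-270000211 on the minus strand for Prdx3. Each is written 5′ to 3′ along its gene, with a motif match in capitals.
Sod2: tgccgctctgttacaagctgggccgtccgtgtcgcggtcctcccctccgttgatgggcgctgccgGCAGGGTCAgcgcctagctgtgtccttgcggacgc
Gpx4: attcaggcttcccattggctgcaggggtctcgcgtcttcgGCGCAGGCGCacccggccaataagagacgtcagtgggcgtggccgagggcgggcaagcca
Gpx1: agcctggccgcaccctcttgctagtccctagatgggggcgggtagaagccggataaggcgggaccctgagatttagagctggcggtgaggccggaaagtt
Prdx3: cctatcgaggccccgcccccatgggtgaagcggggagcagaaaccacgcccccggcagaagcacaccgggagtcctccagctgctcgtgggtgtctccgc
The 250 bases before each start were searched on both strands. The core of the antioxidant response element, TGACNNNGC, was found in Sod2 alone of the 9, on the opposite strand 27 to 35 bases before the start, and in 10.1% of all 33469 promoter windows. The Nrf1 motif was found in Gpx4 alone, 51 to 60 bases before the start, and in 3.75% of windows. TCAAGGTCA, the motif of estrogen-related receptors, was in none of the 9 and in 0.388% of windows. These matches describe letters in these windows and show no binding.

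Library totals were 19477976 to 39401323 counts for SM, 530397 to 9988027 for MT, and 54645657 to 75758777 for LV. Genes of the mitochondrial genome took 22.1% to 35.9% of counts in SM, 39.9% to 50.7% in LV and 12.9% to 95.4% in MT. Heart and muscle markers matched the labels: Myh6 lay between 14466 and 22250 CPM (counts scaled to a fixed library total) in LV, and Acta1 between 17882 and 28992 CPM in SM. MT libraries also held counts on genes that neither tissue is known for, and whether these counts came from RNA was not tested. The 1260 odorant and vomeronasal receptor genes took 1.37% to 1.98% of nuclear-encoded counts in MT, against at most 0.00158% in SM. Rats fell into 2 ranges of numbers, 2 to 16 and 17 to 32, with 7 and 8 rats of each arm in SM and MT, and muscle values are also given within each range. LV had 1 rat per arm from the earlier range.

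Oplah was higher in trained than in sedentary whole muscle. It measured 52.3 ± 6.46 CPM (SD, n = 15) in SM_Sed and 66.4 ± 8.33 CPM (SD, n = 15) in SM_ExT, scaled by TMM (a normalization of library totals) within SM. Sedentary libraries ran from 42.2 to 62.3 CPM with a median of 52.4, and trained libraries from 52.2 to 87.5 CPM with a median of 65.5. The arms overlapped, but 11 of the 15 trained rats lay above the highest sedentary rat and 6 sedentary rats lay below the lowest trained rat. The log2 fold change (ExT against Sed) was 0.34 (SE 0.064). Oplah was the 1 member of 10 called in muscle at an adjusted p under 0.05, where 28 of 13570 genes (0.206%) were called. Within rats 2 to 16, Oplah averaged 49.5 ± 5.89 CPM (SD, n = 7) in Sed and 63.5 ± 7.40 CPM (SD, n = 7) in ExT. Within rats 17 to 32 it averaged 54.8 ± 6.24 CPM (SD, n = 8) and 68.9 ± 8.74 CPM (SD, n = 8). The log2 fold change was 0.33 in rats 17 to 32 alone, where Oplah was not called. Both ranges are parts of the libraries that chose Oplah and are no separate support.

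Slow-fibre markers and mitochondrial mRNA had higher medians in the trained arm in the earlier range and lower ones in the later range. In rats 2 to 16, the 7 slow-fibre markers, all detected, summed to a median of 8762 CPM in Sed and 19544 CPM in ExT. In rats 17 to 32 the medians were 14993 CPM in Sed and 13934 CPM in ExT. The 13 mitochondrial-genome mRNAs summed to medians of 81259 CPM in Sed and 100364 CPM in ExT in rats 2 to 16, and to 68030 and 64701 CPM in rats 17 to 32. Over both ranges together, the slow-fibre sums had medians of 12581 CPM in Sed and 16612 CPM in ExT. Those of the mitochondrial mRNAs were 68253 and 73002 CPM. Whether these sums go with the level of Oplah was not tested. In bulk tissue, fewer cells of a type and less RNA per cell cannot be told apart.

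The other 9 members differed less between the arms of muscle, and none was called. Their log2 fold changes lay between -0.07 (Gclc) and 0.16 (Prdx5). Across all 10 members the median log2 fold change was 0.08, against -0.01 over all genes tested. Sod2, the matrix dismutase, averaged 255.5 ± 31.2 CPM (SD, n = 15) in SM_Sed and 280.7 ± 31.5 CPM (SD, n = 15) in SM_ExT, a log2 fold change of 0.14 (SE 0.063). Prdx5 averaged 98.4 ± 14.1 and 109.7 ± 11.7 CPM (SD, n = 15 each), a log2 fold change of 0.16 (SE 0.065), and 6 sedentary rats lay below every trained rat. In rats 2 to 16 alone the log2 fold change of Prdx5 was 0.32. Its mean in that range was 90.1 CPM in Sed and 112.3 CPM in ExT, but 105.7 and 107.4 CPM in rats 17 to 32. Catalase likewise averaged 79.8 CPM in Sed and 95.3 CPM in ExT in the earlier range, and 81.9 and 80.8 CPM in the later range. Nfe2l2 averaged 20.9 and 24.6 CPM in the earlier range and 20.8 and 21.2 CPM in the later range. The difference between ranges was not tested.

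Gpx1, the selenium-dependent peroxidase of cytosol and mitochondria, had the widest spread in muscle, with a coefficient of variation of 31.3% in SM_Sed and 25.5% in SM_ExT. Its group means were nearly the same, 65.1 ± 20.4 CPM in SM_Sed and 65.6 ± 16.7 CPM in SM_ExT (SD, n = 15 each), for a log2 fold change of 0.01 (SE 0.149). Within the ranges the means lay in opposite directions. In rats 2 to 16 Gpx1 averaged 56.7 ± 20.1 CPM (SD, n = 7) in Sed and 74.9 ± 15.6 CPM (SD, n = 7) in ExT. In rats 17 to 32 it averaged 72.4 ± 18.8 CPM (SD, n = 8) in Sed and 57.4 ± 13.7 CPM (SD, n = 8) in ExT. The arms overlapped within each range.

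**Figure D1:**
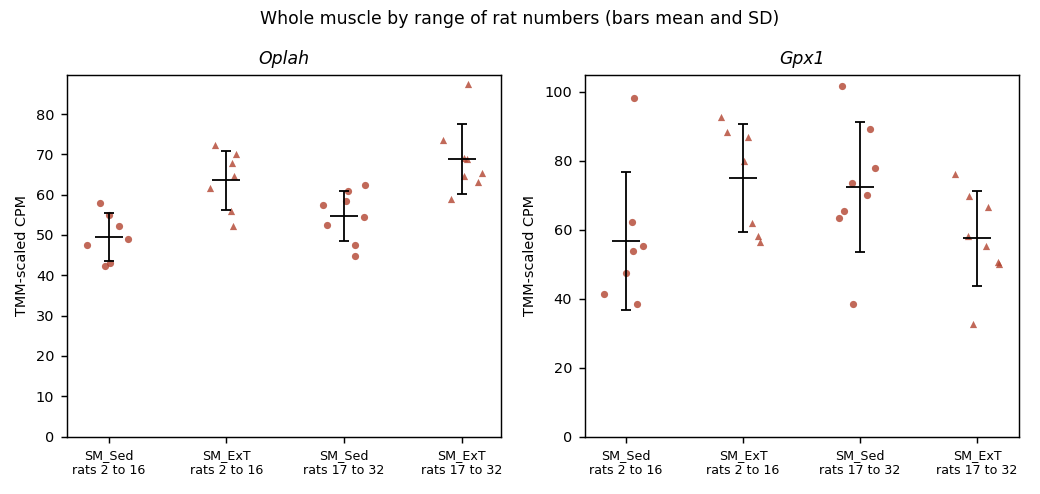
Oplah and Gpx1 in whole muscle by arm and range of rat numbers, with TMM-scaled CPM on the vertical axis. Points are libraries (circles Sed, triangles ExT) and bars are the mean and SD. Oplah was higher in ExT in both ranges, with means of 63.5 against 49.5 CPM and 68.9 against 54.8 CPM, while the Gpx1 means were higher in ExT in rats 2 to 16 and lower in rats 17 to 32.

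For each of the 9 members other than Oplah, the muscle means of the arms differed by less than the SD of either arm. Sod1 averaged 59.8 and 61.9 CPM, Prdx3 81.5 and 84.4 CPM, Gpx4 104.4 and 99.9 CPM, and Gclc 9.79 and 9.34 CPM in Sed and ExT.

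In the heart, no member was called between ExT and Sed, where edgeR called 0 of 14488 genes (0%) and 855 genes (5.90%) had an unadjusted p under 0.05. DESeq2 called 1 gene, which was no member. Oplah ran from 18.2 to 25.3 CPM in LV_Sed (median 20.8) and from 20.4 to 26.7 CPM in LV_ExT (median 22.7). All but 1 of the trained hearts lay above the sedentary median, and the arms overlapped. Its log2 fold change was 0.14 (SE 0.074, 95% interval -0.02 to 0.29), with p = 0.0826 and an adjusted p of 0.806. Nfe2l2 had the narrowest spread of the members in heart. It ran from 31.6 to 35.2 CPM in LV_Sed and from 33.6 to 39.1 CPM in LV_ExT, and 5 of 7 trained hearts lay above the highest sedentary one. Its log2 fold change of 0.09 (SE 0.041) had an unadjusted p of 0.0478 and an adjusted p of 0.804. It was the 1 member of 10 with an unadjusted p under 0.05 there. The other 8 members had log2 fold changes from -0.07 (Gclc) to 0.10 (Sod2). The median over the 10 members was 0.05, against 7.1e-05 over all genes. For Gpx1, the highest and the lowest trained hearts, at 322.6 and 218.8 CPM, bracketed nearly the whole sedentary range of 229.5 to 336.4 CPM.

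In mitochondrial preparations no member was called either. EdgeR called 0 of 19281 genes (0%), 912 genes (4.73%) had an unadjusted p under 0.05, and DESeq2 called 0. Oplah, which was higher in trained whole muscle, averaged 43.4 ± 7.57 CPM in MT_Sed and 44.3 ± 6.82 CPM in MT_ExT (SD, n = 15 each, TMM-scaled within MT). Its log2 fold change was 0.03 (SE 0.083), with a 95% interval of -0.14 to 0.19. Prdx3, the mitochondrial peroxiredoxin, had the lowest p of the members. It ran from 3.75 to 10.7 CPM in MT_Sed (median 6.56) and from 5.81 to 11.7 CPM in MT_ExT (median 9.52). The arms overlapped over most of their range, with 3 trained libraries above and 4 sedentary libraries below the other arm. Its log2 fold change of 0.35 (SE 0.169) had an unadjusted p of 0.0429 and an adjusted p of 0.9997. These values rest on 6 to 22 counts per library. Odorant and vomeronasal receptor genes, known to be silent in muscle, had lower and upper deciles of 1.95 and 11.04 CPM in MT. Mean Prdx3 (6.95 CPM in MT_Sed and 8.98 CPM in MT_ExT), Gpx1 (6.51 and 5.32 CPM) and Sod1 (8.93 and 10.1 CPM) lay between them. The means of the other members lay above. How far the counts of any member exceed such background was not tested. Gpx1 had the fewest counts, from 0 to 18 in MT_ExT and from 5 to 22 in MT_Sed, and a log2 fold change of -0.25 (SE 0.204). The count of 0 in the 1 such library, of MT_ExT rat 2, allows up to 3 counts, which is 2.92 CPM on the same scale and covers counting error only. In 14 of the 30 MT libraries, 8 Sed and 6 ExT, at least 50% of counts fell on the mitochondrial genome. Without them 0 members were called, Gpx1 did not pass the filter on low counts, and Prdx3 had a log2 fold change of 0.21.

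**Figure D2:**
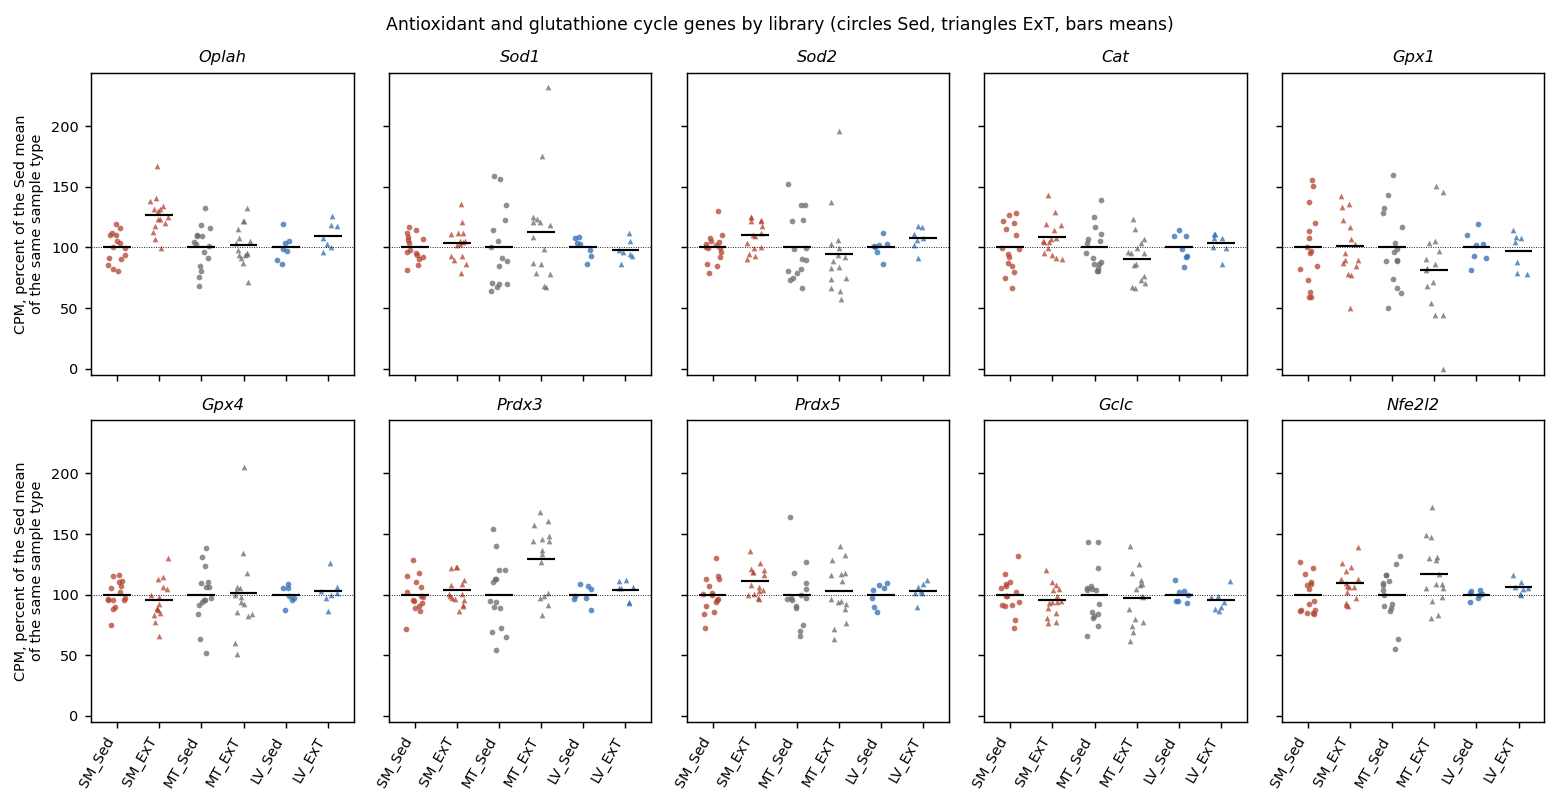
TMM-scaled CPM of each member in every library, as a percent of the Sed mean of the same sample type, for SM, MT and LV. Circles are Sed, triangles ExT and bars are means. The mean of Oplah in SM_ExT stands above the line of 100%, and the 1 MT_ExT library without a Gpx1 count lies at 0%.

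**Figure D3:**
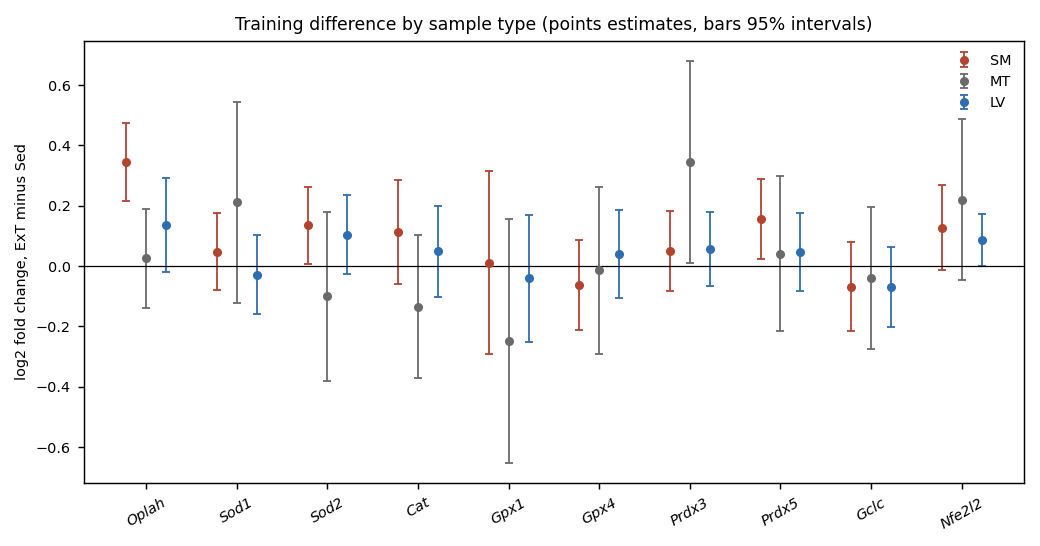
Log2 fold change of ExT against Sed for each member in SM, MT and LV, with 95% intervals. The SM value of Oplah, which chose it, is 0.34. The MT intervals are the widest for all 10 members.

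Whether the training difference itself differed between tissues was asked with an interaction term. For LV against SM over the 14 shared rats, edgeR called 0 of 15049 genes (0%), 687 (4.57%) had an unadjusted p under 0.05, and DESeq2 called 1 gene. No member had an unadjusted p under 0.05. The interaction for Gpx1 was 0.21 on the log2 scale (SE 0.160, p = 0.194, adjusted p = 0.99998). For MT against SM, 5 of 27684 genes (0.0181%) were called, none of them a member, and 2354 (8.50%) had an unadjusted p under 0.05. Catalase came closest among the members that can be tested, at -0.28 (SE 0.141, p = 0.0534, adjusted p = 0.600). For Oplah, whose muscle difference chose it, the interaction is given without a test: -0.35 (SE 0.112) for MT against SM and -0.17 (SE 0.117) for LV against SM. These 2 terms share the SM libraries.

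The 9 lists of related genes gave 0 calls in each of the 3 training comparisons and in both interactions. Over all genes the share called was 0.206% in SM and 0% in MT and LV. It was 0% for the interaction of LV against SM and 0.0181% for MT against SM, so 0 calls is near the background. The lists cover the gamma-glutamyl cycle, other glutathione peroxidases and glutaredoxins, glutathione S-transferases, other superoxide dismutases, the thioredoxin system, targets of Nfe2l2, mitochondrial NADPH supply, sources of superoxide and peroxide, and methionine sulfoxide reductases with selenoproteins and metallothioneins. In muscle, 13 of 17 gamma-glutamyl cycle genes were tested and had a median log2 fold change of 0.00042, against -0.01 over all genes. The 20 tested regulators and targets of Nfe2l2 had a median of 0.06. The 7 other glutathione peroxidases and glutaredoxins had a median of -0.13, and the 6 NADPH genes one of 0.11.

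The heart differed from muscle in 8 of the 10 members, in both arms. In Sed, 5 members were higher and 3 lower in LV, where 40.0% of 14367 genes were called higher and 38.6% lower. In ExT the same 5 were higher and the same 3 lower, where 39.7% of 14338 genes were called higher and 39.5% lower. Most genes thus differed between these libraries, and 8 of 10 members is near that background. Values here are CPM scaled by TMM over the libraries of each comparison, in the rats that gave both tissues, n = 7 per group.

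Of the peroxide-removing enzymes, Gpx1 and Prdx3 were higher in heart and Prdx5 lower. Gpx1 ran from 210.8 to 308.3 CPM in LV_Sed (median 263.0) and from 65.7 to 107.6 CPM in SM_Sed (median 74.2), with no overlap. Its log2 fold change was 1.74 (SE 0.108, adjusted p = 2.1e-11) in Sed and 1.93 (SE 0.113, adjusted p = 1.1e-11) in ExT. Gpx1 thus set heart and muscle furthest apart among the members that were higher in heart. Prdx3 ran from 160.0 to 204.6 CPM in LV_Sed and from 77.2 to 111.2 CPM in SM_Sed, with log2 fold changes of 1.03 (SE 0.081) and 1.14 (SE 0.078). Prdx5 ran from 41.5 to 54.2 CPM in LV_Sed and from 100.5 to 135.8 CPM in SM_Sed. It was lower in heart in all 7 rats of each arm, by log2 fold changes of -1.22 (SE 0.079) and -1.20 (SE 0.073). The peroxiredoxins Prdx3 and Prdx5, both known in mitochondria, therefore differed between these tissues in opposite directions. Gpx4 was higher in heart in 6 of 7 rats of each arm, with log2 fold changes of 0.32 (SE 0.069) and 0.45 (SE 0.091), and its groups overlapped. Catalase was not called in either arm (log2 fold changes of -0.10 and -0.02), although with library totals in place of TMM it was called higher in ExT at 0.17.

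Of the dismutases, cytosolic Sod1 was higher in heart in all 7 rats of each arm, with log2 fold changes of 0.37 (SE 0.068, adjusted p = 5.6e-05) and 0.44 (SE 0.074, adjusted p = 2.5e-05). Sod2 was not called, at -0.16 (95% interval -0.32 to 0.01) in Sed and -0.12 (95% interval -0.30 to 0.06) in ExT. DESeq2 and the fit on rats 17 to 32 did call Sod2 lower in Sed, at -0.18 and -0.20.

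Oplah was lower in heart than in muscle in all 7 rats of each arm. It ran from 16.5 to 23.8 CPM in LV_Sed and from 50.2 to 66.0 CPM in SM_Sed, 3.05-fold lower (log2 fold change -1.61, SE 0.080, adjusted p = 4.8e-13). In ExT it ran from 19.1 to 25.1 CPM in LV and from 63.6 to 94.3 CPM in SM, 3.48-fold lower (log2 fold change -1.80, SE 0.085). The SM_ExT values, whose height chose Oplah, enter this comparison, so it is given without a p-value. Nothing is read from the larger fold in ExT than in Sed. Gclc was lower in heart by smaller steps, -0.37 (SE 0.080) in Sed and -0.30 (SE 0.088) in ExT, and was not called in either arm with library totals (-0.12 and -0.11). Nfe2l2 was higher in heart in all 7 rats of each arm. It ran from 31.1 to 36.8 CPM in LV_ExT and from 20.7 to 27.6 CPM in SM_ExT, with log2 fold changes of 0.49 (SE 0.071) and 0.51 (SE 0.068). Library totals moved the median of all genes from 0.04 to 0.28 in Sed and from 0.01 to 0.21 in ExT. They also moved the share of calls that were higher in Sed from 50.9% to 62.7%.

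**Figure D4:**
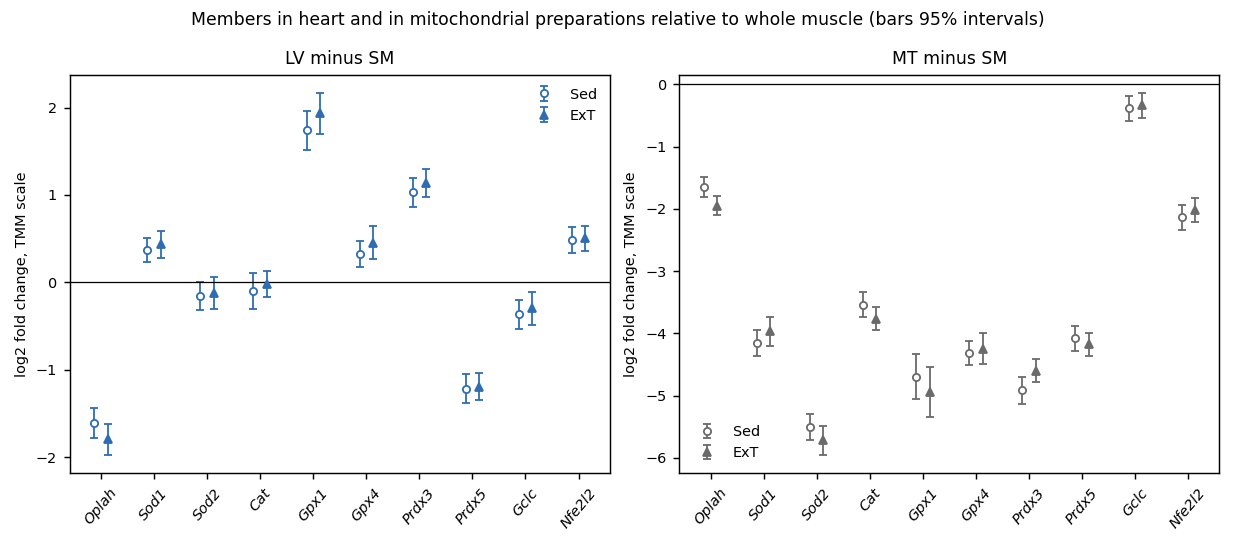
Log2 fold change of each member in LV against SM (left) and MT against SM (right), for Sed and ExT, with 95% intervals on the TMM scale. In LV, Gpx1 and Prdx3 lie furthest above 0 and Oplah and Prdx5 furthest below it, with both arms alike in direction. In MT all members lie below 0 on this scale, Gclc least, and its direction turned under other scalings.

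Related genes also differed between heart and muscle in both directions. Over all genes, 40.0% were called higher and 38.6% lower in Sed, and 39.7% and 39.5% in ExT. Of the thioredoxin system, 13 genes were tested and 8 were higher in LV in Sed and 2 lower. Prdx6 was 3.07-fold higher (log2 1.62, SE 0.061) and Prdx2 2.01-fold higher (log2 1.00, SE 0.065), whereas Txn2, the mitochondrial thioredoxin, was 7.88-fold lower (log2 -2.98, SE 0.104). All 3 were called in the same direction in ExT, at log2 fold changes of 1.70, 0.88 and -2.99. Of 15 glutathione S-transferases tested, 10 were higher and 3 lower in both arms, among them Mgst1 at 11.7-fold and Gsta4 at 5.22-fold higher in Sed. Of 6 genes of mitochondrial NADPH supply, 5 were higher and 0 lower in both arms, among them Idh2 (2.25-fold in Sed) and Nnt (1.90-fold in Sed). Of 11 genes for sources of superoxide and peroxide, 8 were higher and 1 lower. Maoa, the outer-membrane monoamine oxidase that yields peroxide, was 8.30-fold higher in Sed and 8.37-fold higher in ExT. With library totals in Sed, 10 thioredoxin system genes were called higher and 2 lower, and 12 and 3 glutathione S-transferases. The NADPH genes were then 6 higher and 0 lower, and the sources 8 and 1.

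The gamma-glutamyl cycle list was divided. Of 15 genes tested, 8 were higher and 5 lower in LV in Sed, and 7 higher and 6 lower in ExT. Slc25a39 and Slc25a40, carriers tied to mitochondrial glutathione import, were 2.07-fold and 3.32-fold higher in Sed. Ggct, which forms the 5-oxoproline that Oplah uses, was 3.55-fold lower in Sed and 3.95-fold lower in ExT, beside the lower Oplah. Slc3a2, a subunit of amino-acid exchangers, was 2.99-fold lower in Sed. Of 20 regulators and targets of Nfe2l2, 7 were higher and 11 lower in Sed, and 7 higher and 10 lower in ExT. Keap1, the repressor of Nfe2l2, was 1.81-fold lower in LV in Sed, and the target Pgd of the pentose phosphate pathway 4.09-fold lower. Fth1, ferritin heavy chain, was 3.68-fold lower, and Taldo1 of the same pathway as Pgd 2.54-fold higher. With library totals the targets were 8 higher and 7 lower in both arms. They were thus called in both directions under each scaling, while Nfe2l2 itself was higher in heart.

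On the TMM scale all 10 members were called lower in mitochondrial preparations than in whole muscle in both arms, although Gclc turned direction under other scalings and Oplah did so in ExT after thinning. In these comparisons 33.1% of 22842 genes were called lower in Sed and 35.0% of 21312 in ExT. The median over the members was -4.12 in Sed and -4.07 in ExT, while the median over all genes was 1.81 and 1.31. This scale depends on the normalization. The median of all genes in Sed was 2.21 with RLE size factors and 3.43 with library totals, and the share of calls that were higher went from 65.1% to 86.2% with library totals in Sed and from 62.9% to 86.5% in ExT. Relative to the median of all genes, the members lay between -7.32 (Sod2) and -2.20 (Gclc) in Sed, and between -7.03 (Sod2) and -1.64 (Gclc) in ExT.

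Relative to whole muscle, Sod2 was the lowest member in MT in both arms, followed by Prdx3 in Sed and by Gpx1 in ExT. Sod2 ran from 6.13 to 13.9 CPM in MT_Sed (median 8.40) and from 327.7 to 539.8 CPM in SM_Sed (median 431.2), with TMM over both kinds of library. It was 45.4-fold lower in Sed (log2 fold change -5.50, SE 0.104, adjusted p = 9.4e-41) and 52.6-fold lower in ExT (-5.72, SE 0.117, adjusted p = 6.9e-40). The size depended on the scaling: the log2 fold change of Sod2 was -3.97 in Sed and -4.17 in ExT with library totals, and -3.92 and -3.42 after thinning to the smallest library, called each time. Prdx3 was 30.2-fold lower in Sed and 24.2-fold lower in ExT. The mRNAs of Sod2 and Prdx3, whose proteins work inside mitochondria, thus took a smaller share of the scaled counts in the mitochondrial libraries than in the muscle they came from. Gpx1, Gpx4, Sod1 and Prdx5 were between 15.7-fold and 30.7-fold lower in both arms, and Cat was 11.6-fold and 13.6-fold lower. Each of these members was lower in MT in all 15 rats of each arm with no overlap. Most genes differed here, with 21648 of 22842 called in Sed and 20092 of 21312 in ExT. How many of all genes had no overlap was not counted, so nothing particular to the members is read from it. With library totals Prdx3, Gpx1, Gpx4, Sod1, Prdx5 and Cat were all still called lower, at smaller log2 fold changes between -3.38 (Gpx1 in ExT) and -1.94 (Cat in Sed). After thinning, Cat in ExT was -1.26 and no longer called (adjusted p = 0.129, edgeR).

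Oplah, Nfe2l2 and Gclc stood nearer to their muscle level. Oplah ran from 18.5 to 35.9 CPM in MT_Sed (median 27.9) and from 69.4 to 100.5 CPM in SM_Sed (median 85.9), 3.15-fold lower. In ExT it was 3.86-fold lower, a fold that holds the SM_ExT values that chose Oplah. MT libraries of both arms held 41 to 121 Oplah counts. With library totals Oplah was no longer called, at -0.01 in Sed and -0.29 in ExT, and after thinning to the smallest library it was -0.11 in Sed and 0.48 in ExT, neither called. Nfe2l2 was 4.40-fold lower in Sed and 4.07-fold lower in ExT. With library totals it was -0.53 in Sed, still called, and -0.45 in ExT, not called, and after thinning it was -0.98 in ExT, not called. Gclc ran from 8.13 to 17.8 CPM in MT_Sed and from 11.6 to 20.4 CPM in SM_Sed, groups that overlapped. It was lower in MT in 11 of 15 rats in Sed and 10 of 15 in ExT, at log2 fold changes of -0.39 (SE 0.097) and -0.34 (SE 0.100). Its direction turned under other scalings, to 0.01 and 0.04 with RLE size factors and to 1.23 and 1.22 with library totals. No direction is therefore given for Gclc in MT.

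The other genes of the pathway were split in MT. Over all genes tested, 61.7% were called higher in MT in Sed and 59.3% in ExT, beside the shares called lower given above. Of 17 gamma-glutamyl cycle genes, 8 were called higher and 8 lower in both arms, and 11 higher and 3 lower with library totals. Genes of the gamma-glutamyl transferase family with little RNA in muscle were among the higher ones. Ggt1, which breaks down glutathione outside the cell, had a mean of 13.1 CPM in MT_Sed against 0.0714 CPM in SM_Sed, and Ggt7 had means of 14.6 and 0.649 CPM. Of 13 thioredoxin system genes, 11 were lower in both arms (5 with library totals), with Prdx2 19.9-fold and Txn2 13.9-fold lower in Sed. Of 6 genes of mitochondrial NADPH supply, 5 were lower (3 with library totals), with Idh2 45.7-fold lower in Sed, and Mthfd2, with means of 13.6 CPM in MT_Sed against 1.17 CPM in SM_Sed, was higher. Receptor genes of the nose, known to be silent in muscle, moved the same way as Ggt1. Their median over genes was 4.08 CPM in MT and 0 CPM in SM, scaled within each kind of library, and 1252 of 1260 had counts in MT against 509 in SM. Cardiomyocyte markers summed to 206.4 to 294.0 CPM in MT_Sed and to 17.2 to 65.5 CPM in SM_Sed, with all 8 detected in both. Macrophage markers and mitochondrial mRNAs also had higher median sums in MT_Sed. Skeletal muscle fibre markers (8 of 10 listed) went the other way, with medians of 364.8 CPM in MT_Sed and 109384 CPM in SM_Sed. So did slow-fibre (178.7 and 12581 CPM) and fibroblast markers (232.4 and 2656 CPM), and endothelial, erythroid and adipocyte markers. The part of background like that on receptor genes in the members' MT counts was not tested.

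Finally, the genes whose levels followed Oplah most closely over the 30 SM libraries were ranked among 11449 genes with at least 1 CPM, by Pearson's r of log2 CPM. These are descriptions, and the libraries share arms, rat ranges and depth. Since they include the difference between arms that chose Oplah, r of the deviations from the arm means is given too. The 5 highest were Letm1 (r = 0.88, rho = 0.83), a protein of the mitochondrial inner membrane, Ppip5k1 (r = 0.87, rho = 0.85), an inositol pyrophosphate kinase, Smpd1 (r = 0.85, rho = 0.82), acid sphingomyelinase, Hcn2 (r = 0.85, rho = 0.83), a pacemaker channel, and Got1 (r = 0.84, rho = 0.86), cytosolic aspartate aminotransferase. Within arms r was 0.82, 0.77, 0.81, 0.72 and 0.70 for these genes in the same order. Without the 2 libraries farthest from the median of Oplah, r lay between 0.78 (Smpd1) and 0.88 (Ppip5k1). Over the 14 LV libraries their r with Oplah was 0.52, -0.05, 0.57, 0.51 and 0.66 in the same order. Their ranks there among 11567 genes were 1275, 6450, 930, 1346 and 508, so none was among the 5 closest genes in heart. Among the other members, r was 0.54 for Sod2, 0.53 for Prdx5, 0.49 for Cat, 0.45 for Nfe2l2 and 0.28 for Gpx1. Within arms the order changed, with 0.44 for Cat, 0.41 for Sod2, 0.37 for Prdx5, 0.36 for Gpx1 and 0.32 for Nfe2l2. The other members had within-arm values from -0.04 (Gpx4) to 0.19 (Prdx3).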

How the data were processed

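The authors deposited whole-number counts of reads per gene in 1 table each for SM, MT and LV. Per the submitters' processing notes, FastQC 0.74, cutadapt 4.6, STAR 2.7.11a and HTSeq were used with the build mRatBN7.2. The annotation version, strand setting and treatment of reads that fit several copies are not given in the sources used here, and 6518 genes carry no symbol, so reads shared with unnamed copies or overlapping genes were not assessed. Libraries were grouped by their titles, and all 74 columns belonged to a sample. No pair within a group agreed within sampling noise, but the closest MT pairs came near it. The smallest chi-square per degree of freedom of a pair was 1.20 in MT_ExT and 1.48 in MT_Sed. In the SM and LV groups it was 13.5 to 22.9.

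Each comparison was fitted on its own libraries with edgeR 4.0.16 in R 4.3.3 (quasi-likelihood test), using TMM, filterByExpr and robust dispersion. P-values were adjusted by Benjamini-Hochberg over all genes tested, and genes under 0.05 are called. The method was tested on simulated data. LV against SM used the 14 rats with both tissues. Alternatives were DESeq2 1.42.0, RLE factors, library totals, no filter, no mitochondrial-genome genes, ranges of rat numbers, the rat as a block, thinning to the smallest total and each library left out. A further one, without MT libraries at or above 50% mitochondrial-genome counts, was chosen after seeing the data. The rat numbers pair the samples because they name the same animal. Deviations from group means correlated across genes within a rat at a median of 0.015 for MT and SM (-0.075 to 0.174). For LV and SM the median was 0.027 (-0.163 to 0.163). Between different rats of the same arm the medians were 0.0002 and -0.0065, so the counts themselves barely show the pairing.

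The members and lists were chosen with earlier results of these data known. All 10 members are reported in every comparison. From each list, up to 3 called genes per direction with at least 1 CPM could be named, by lowest adjusted p, leaving out symbols with more than 1 identifier. Of these, the text gives a part. CPM are not compared between genes, as no transcript lengths were used. Counting error alone is covered by limits for counts of 0.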

Additional observations from a re-analysis of the deposited data

How the results depend on the processing

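In whole muscle, 28 genes were called between the arms, 136 with DESeq2, 45 with the range of rat numbers as a term, 396 in rats 2 to 16 alone (with 2 members, Oplah and Prdx5) and 1 in rats 17 to 32 alone (with 0 members). Leaving out each library in turn gave 12 (without sedentary rat 4, 8 or 12 or trained rat 27) to 100 genes (without sedentary rat 23), and 15 of the 30 moved the count by over 1.5 times. The count of members called was 1 throughout, with Oplah at 0.31 to 0.37, but these are the libraries that chose Oplah, so this is no sign of stability. In MT and LV, 0 members and 0 genes were called with each library left out, and DESeq2 called 1 gene in LV. For the training difference by tissue, DESeq2 called 1 gene in LV against SM. In MT against SM the 5 calls became 0 with library totals, 32 with DESeq2, 20 in rats 2 to 16, 1 in rats 17 to 32 and 3 without MT libraries at or above 50% mitochondrial-genome counts. With the rat as a replicate block there were 3 calls in that comparison. The block changed no call of a member and moved no other count of calls by over 1.5 times.

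For MT against SM, thinning to the smallest total left 6 members and 3923 genes called in Sed and 4 members and 1988 genes in ExT, with far fewer counts behind each gene. Gclc turned from lower to 0.014 and 0.041 (Sed and ExT) with RLE factors, 0.012 and 0.040 with DESeq2, 1.23 and 1.22 with library totals, and 0.55 and 1.21 after thinning. Oplah in ExT was 0.48 after thinning. Nfe2l2 in ExT lost its call with library totals and after thinning, and Cat in ExT after thinning. In LV against SM, catalase in ExT was 0.17 with library totals. Rats 2 to 16 alone could not be fitted for comparisons with LV, which had 1 rat per arm there. MT libraries were the shallowest, with as few as 0 counts (Gpx1) in a library, and after thinning Gpx1 in both arms, Prdx3 in ExT and Nfe2l2 in Sed gave no value for MT against SM.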
